A study of Mus musculus and Homo sapiens with 32 samples.

Results

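The 50 genes described here encode cell cycle and mitosis proteins. They were taken by gene symbol from the count table of a ureteral obstruction experiment in mouse kidney, and all 50 were found among its 57180 genes. Of these, 5 act in G1, 6 at the G1/S transition, 13 in S phase and 26 in G2 and mitosis (G2/M). All 50 were among the 19256 genes kept by the filter on low counts. Total RNA of whole kidney was sequenced as messenger RNA libraries, in 6 groups of 3. Each genotype, Pcmt1 fl/fl (floxed) and Pcmt1 tKO, was studied after sham surgery with DMSO, after unilateral ureteral obstruction (UUO) with DMSO, and after UUO with LY2109761, a small-molecule inhibitor of the TGF-β receptor kinases. Pcmt1 encodes the protein L-isoaspartyl methyltransferase, which repairs aged proteins. The labels do not spell out tKO, and they give no driver of the deletion, strain, age, dose or day of sampling. They also do not say whether the libraries of a group came from separate animals, and the p-values below therefore reflect the scatter of these libraries alone, which could be technical. The same series holds 8 libraries of Pcmt1 KO and wild-type kidney and 6 of HK-2, an immortalized line from human proximal tubule, either wild-type or knocked out for PCMT1.

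The cell cycle runs through 4 phases. In G1, D-type cyclins with Cdk4 and Cdk6 phosphorylate the retinoblastoma protein, which frees E2F factors to switch on the genes of DNA replication. Cyclin E with Cdk2 then starts S phase, in which the Mcm helicase, loaded by Cdc6 and Cdt1, unwinds DNA ahead of the replication fork while the sliding clamp Pcna holds the polymerase on the DNA behind it. Cyclins A and B with Cdk1 drive entry into mitosis, and the anaphase-promoting complex ends it by destroying cyclin B. Most tubule cells of the adult kidney are quiescent, and injury is known to bring surviving tubule cells and infiltrating or resident interstitial cells back into the cycle.

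Promoters of cell cycle genes often hold short words linked to their phase of expression. E2F factors bind words such as TTTCCCGC, TTTCGCGC and TTTGGCGC, which are typical of S phase genes. NF-Y binds the CCAAT box, and the CHR element (cell cycle genes homology region, TTTGAA) is bound by the MuvB complexes that repress or activate G2/M genes. RefSeq promoter windows of GRCm38.p6, from 250 bases before to 50 after a start site, were matched by symbol for 39 of the 50 members. Counting both strands, the CHR word was found in 68.4% of the 19 G2/M windows, in 8.33% of the 12 S phase windows and in 18.1% of all 27025 genes with a window. The CCAAT box was found in 89.5% of the G2/M windows, 75% of the S phase windows and 37.9% of all. An exact E2F word was found in 50% of the S phase windows, 5.26% of the G2/M windows and 1.91% of all. Of the 5 G1/S windows 20% held the CHR word, 60% the CCAAT box and 40% an E2F word. None of the 3 G1 windows held any of these words. A match is a description of letters and was not tested for binding.

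The stretches just before a start site of 5 G2/M members are shown because their levels carry much of what follows. They lie in Cdk1 at chr10:69352913-69353047 (minus strand), Cdc20 at chr4:118437344-118437443 (minus strand), Ube2c at chr2:164769829-164769928 (plus strand), Mki67 at chr7:135716380-135716579 (minus strand), Top2a at chr11:99024190-99024339 (minus strand). Capitals mark the CHR word (TTTGAA or TTCAAA), the CCAAT box (CCAAT or ATTGG) and, in Cdk1 alone of these 5, an E2F word. Each of the 5 holds the CHR word, which 68.4% of the 19 G2/M windows held. Ccnb1, which had no CHR word in its window, is not shown.
Cdk1: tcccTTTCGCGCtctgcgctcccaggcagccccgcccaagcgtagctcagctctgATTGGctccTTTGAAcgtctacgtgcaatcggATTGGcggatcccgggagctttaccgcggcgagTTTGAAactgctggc
Cdc20: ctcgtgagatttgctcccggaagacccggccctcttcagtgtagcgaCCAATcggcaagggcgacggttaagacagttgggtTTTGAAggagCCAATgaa
Ube2c: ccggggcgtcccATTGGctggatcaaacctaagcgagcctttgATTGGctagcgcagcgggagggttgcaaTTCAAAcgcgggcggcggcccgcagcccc
Mki67: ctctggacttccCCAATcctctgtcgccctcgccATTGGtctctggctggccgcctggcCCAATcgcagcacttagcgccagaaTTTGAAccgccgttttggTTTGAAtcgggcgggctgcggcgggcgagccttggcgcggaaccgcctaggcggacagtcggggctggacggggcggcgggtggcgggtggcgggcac
Top2a: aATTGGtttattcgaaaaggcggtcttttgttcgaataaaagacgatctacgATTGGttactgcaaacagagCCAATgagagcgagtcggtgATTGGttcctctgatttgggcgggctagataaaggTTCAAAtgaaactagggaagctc
In Cdk1, Cdc20 and Mki67 the CHR word stands on the strand of the gene, and in Top2a and Ube2c the word nearest the start site stands on the opposite strand. The distance of that nearest word from the start site was 15 bases in Cdk1, 18 in Cdc20, 23 in Top2a, 29 in Ube2c and 98 in Mki67.

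Stretches of 3 S phase members are shown for contrast, Mcm6 at chr1:128359706-128359835 (minus strand), Mcm7 at chr5:138171884-138172053 (minus strand), Cdc6 at chr11:98908001-98908150 (plus strand). Capitals mark E2F words and CCAAT boxes, and no CHR word occurs in these stretches. Each of the 3 holds an E2F word, which 50% of the 12 S phase windows held.
Mcm6: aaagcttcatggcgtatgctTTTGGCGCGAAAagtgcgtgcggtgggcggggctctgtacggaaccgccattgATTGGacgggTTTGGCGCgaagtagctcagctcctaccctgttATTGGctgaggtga
Mcm7: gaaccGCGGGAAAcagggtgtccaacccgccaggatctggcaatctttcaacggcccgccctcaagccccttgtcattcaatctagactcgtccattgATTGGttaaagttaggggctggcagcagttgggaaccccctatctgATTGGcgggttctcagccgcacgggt
Cdc6: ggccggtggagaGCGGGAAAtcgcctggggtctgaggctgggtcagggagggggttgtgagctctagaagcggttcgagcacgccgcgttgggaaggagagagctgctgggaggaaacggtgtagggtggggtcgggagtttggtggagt
Mcm6 held 3 E2F words, the first pair overlapping on opposite strands, whereas Mcm7 and Cdc6 each held a single one in the stretch shown.

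The libraries of the obstruction experiment held 13015669 to 19565376 reads. Reads from mitochondrially encoded genes took 30.8% to 35.5% of the fl/fl sham libraries, 33.7%, 49.7% and 69.5% of tKO sham replicates 1, 2 and 3, and 7.43% to 18.8% of the 12 obstructed libraries. Levels are therefore given as CPM, read counts brought to a common library size by TMM (trimmed mean of M values), with scaling factors from 0.352 in tKO sham replicate 3 to 1.33. Pcmt1 stood at 42.8 to 48.9 CPM in fl/fl sham and at 22.7 to 27.9 CPM in 8 of the 9 tKO libraries. It stood at 49.3 CPM, above each fl/fl sham library, in the library labelled tKO sham replicate 1. This goes against the label, and the main counts that rest on it are given with and without it. Pcmt1 stood at 41.4, 35.3 and 40.6 CPM in fl/fl UUO. In fl/fl UUO plus LY2109761 it stood at 31.3, 25.7 and 38.9 CPM in replicates 1, 3 and 4. The library labelled replicate 3 lay inside the range of those 8 tKO libraries, but every library of its group lay below fl/fl sham. Its conflict with the label is therefore less clear than that of tKO sham replicate 1. The difference of Pcmt1 between tKO and fl/fl sham was -0.48 on the log2 scale (edgeR adjusted p = 0.1823), or -0.94 (adjusted p = 0.0020) with tKO sham replicate 1 left out. After UUO it was -0.61 (adjusted p = 0.0818), and with LY2109761 it was -0.29 (adjusted p = 0.5355). Proximal tubule markers summed to 32578 to 52534 CPM in the sham libraries, and to 6649 to 13091 CPM in the obstructed ones.

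**Figure D1:**
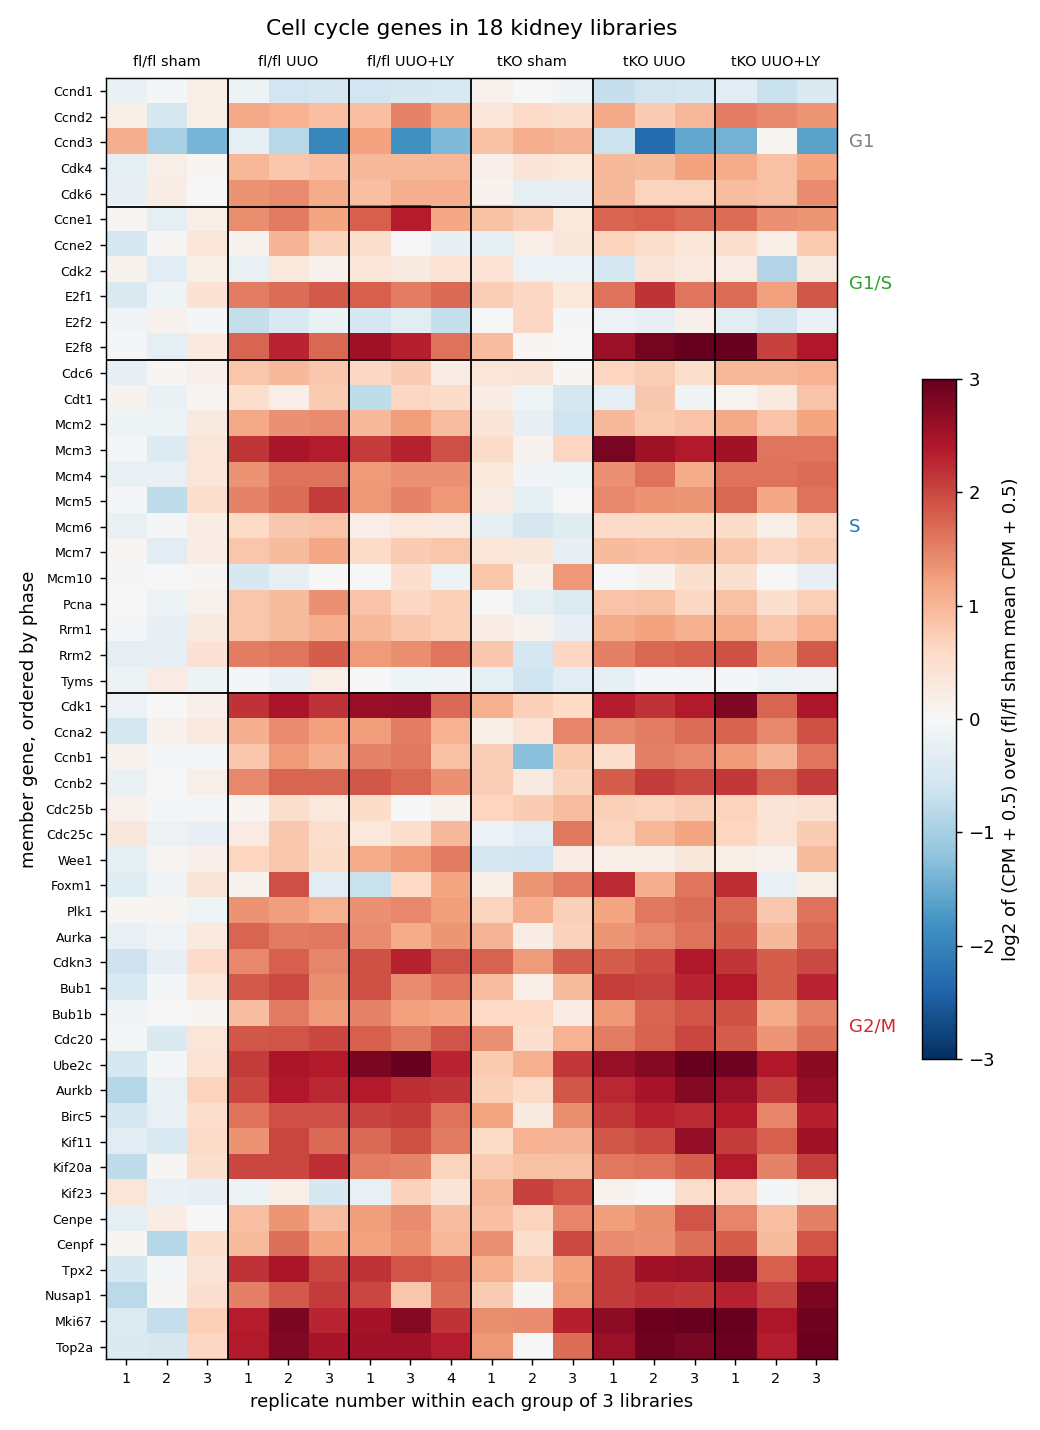
Each row is 1 of the 50 genes and each column 1 of the 18 libraries, and the colour is the log2 ratio of CPM to the mean of the fl/fl sham libraries after adding 0.5 to each, drawn at the end colour beyond 3. Red fills most S and G2/M rows of the 12 obstructed libraries, and in tKO sham it is mostly limited to the G2/M rows, with Ccnd1 a pale blue row in obstructed kidneys, where scaling by column totals turns its change positive.

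In sham fl/fl kidneys most members were rare transcripts, and levels between genes are compared here as deposited FPKM, which is scaled to gene length and library. The cyclin D1 gene Ccnd1 led all 50 with 25.3 ± 4.68 FPKM (SD, n = 3). The highest S phase member was the replication clamp Pcna with a mean of 3.32 FPKM, and the highest G2/M member was Wee1, a kinase that restrains Cdk1, with 2.18 FPKM. The median member mean was 2.52 FPKM in G1, 0.216 in G1/S, 0.822 in S and 0.193 in G2/M. FPKM is scaled to the whole library, mitochondrial reads included, and is used in this paragraph only to compare genes.

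The first question was how the cell cycle genes responded to obstruction in fl/fl kidneys. After UUO 38 of the 50 members rose and 1 fell, each with an adjusted p below 0.05 in edgeR's quasi-likelihood test, against 20.9% of all tested genes that rose and 18.7% that fell. The median change of the members was 1.39 on the log2 scale, and that of all genes 0.02. The rise reached 22 of 26 G2/M members (median log2 change 2.05), 10 of 13 S phase members (1.09), 3 of 6 G1/S members (1.41) and 3 of 5 G1 members (0.90). In 39 members each UUO library lay above each sham library, a pattern held by 28.8% of all genes. When libraries were scaled by column totals, which moved the median of all genes to 0.76, 43 members rose and none fell, beside 8544 genes higher and 906 lower in place of 4031 and 3594.

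In G1 the kinase gene Cdk6 measured 28.0, 38.4 and 33.0 CPM in the 3 fl/fl sham libraries and 85.1, 89.6 and 72.5 CPM after UUO, with no overlap. Its log2 change was 1.32 (SE 0.18, edgeR adjusted p = 2.8e-05). Its partner kinase Cdk4 rose by 0.90 (adjusted p = 4.7e-05) and the cyclin gene Ccnd2 by 1.05 (adjusted p = 3.3e-04). Ccnd1 moved the other way, from 165, 185 and 215 CPM in sham to 169, 126 and 133 CPM after UUO. Only UUO replicate 1 overlapped the sham range. The log2 change of Ccnd1 was -0.40 (SE 0.14, adjusted p = 0.0277) under TMM but 0.33 when libraries were scaled by column totals, and the call was lost without fl/fl sham replicate 2 or 3 or without fl/fl UUO replicate 2 or 3.

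At G1/S the transcription factor genes E2f8 and E2f1 and the cyclin gene Ccne1 rose. E2f8, a repressor that closes the E2F program, was at 0.355, 0.222 and 0.578 CPM in sham and 2.49, 3.83 and 2.41 CPM after UUO, the largest change of any member at 2.88 (SE 0.47, adjusted p = 1.6e-04). E2f1, an activator of replication genes, stood at 1.35, 1.77 and 2.83 CPM in sham and 6.66, 7.41 and 8.46 CPM after UUO. Each UUO library of both genes lay above each sham library. E2f1 changed by 1.91 (adjusted p = 5.1e-05) and Ccne1 by 2.00 (adjusted p = 3.6e-04). Cdk2, the kinase partner of cyclin E, had a log2 change of 0.09 (adjusted p = 0.8436).

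Of the 13 S phase members the helicase genes Mcm3, Mcm4 and Mcm5 were among those that rose. Mcm3 went from 3.48, 2.59 and 4.82 CPM in sham to 17.6, 21.9 and 20.5 CPM after UUO, a log2 change of 2.46 (SE 0.29, adjusted p = 8.5e-06). Mcm5 went from 4.47, 2.51 and 6.81 CPM to 13.7, 15.8 and 21.5 CPM (1.88, SE 0.29, adjusted p = 1.0e-04). The groups of both genes were apart. Mcm4 rose by 1.60 (adjusted p = 1.1e-05). Pcna measured 15.7, 13.8 and 16.96 CPM in sham and 27.9, 30.5 and 40.8 CPM after UUO, all 3 above sham, with a log2 change of 1.09 (SE 0.17, adjusted p = 9.6e-05). The 3 S phase members that did not pass the test were Cdt1, Mcm10 and Tyms, with changes from -0.25 to 0.57.

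Among the 11 regulators of mitotic entry 8 rose and none fell. Cdk1, the mitotic kinase, was at 1.07, 1.26 and 1.48 CPM in sham and at 7.47, 9.11 and 7.39 CPM after UUO, and its log2 change was 2.65 (SE 0.32, adjusted p = 1.1e-05). The cyclin B2 gene Ccnb2 changed by 1.89 (SE 0.22, adjusted p = 7.8e-06) and the kinase gene Aurka by 2.07 (adjusted p = 8.5e-05). Ccnb1, encoding cyclin B1, had only 12 to 15 reads in each sham library and rose by 1.41 (SE 0.53, adjusted p = 0.0459). Its 3 UUO libraries, at 2.061, 3.004 and 2.57 CPM, lay above the sham values of 1.07, 0.887 and 0.899 CPM. Cdc25b, Cdc25c and Foxm1 did not pass the test.

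All 4 checkpoint and anaphase genes rose. Cdc20, which activates the anaphase-promoting complex, went from 1.63, 1.11 and 2.31 CPM to 7.43, 7.61 and 8.25 CPM (2.19, SE 0.28, adjusted p = 1.9e-05). Ube2c, the ubiquitin-conjugating enzyme of that complex, rose by 2.66 (adjusted p = 4.8e-05) and the checkpoint kinase gene Bub1 by 2.66 (adjusted p = 1.1e-04). Of the 9 spindle, kinetochore and cytokinesis genes 8 rose. The 3 with the smallest p were the spindle assembly factor Tpx2 at 2.51 (adjusted p = 1.5e-05), the kinesin Kif20a at 2.44 (adjusted p = 8.2e-05) and the survivin gene Birc5 at 2.09 (adjusted p = 2.8e-04), and the mitotic kinase gene Aurkb, named after its values were seen, rose more, by 2.86 (adjusted p = 3.0e-04). The exception was the cytokinesis kinesin Kif23, with 20.2, 13.6 and 13.0 CPM in sham and 14.0, 17.9 and 11.03 CPM after UUO. Its groups overlapped (log2 change -0.13, adjusted p = 0.7832).

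The proliferation marker Mki67 measured 3.76, 2.96 and 8.80 CPM in fl/fl sham and 28.5, 39.9 and 27.3 CPM after UUO. Top2a, the DNA topoisomerase of dividing cells, measured 1.92, 1.85 and 4.56 CPM in sham and 16.4, 21.9 and 17.6 CPM after UUO. In both genes sham replicate 3 was the highest sham library and still lay below each UUO library. Mki67 changed by 2.62 (SE 0.39, adjusted p = 8.2e-05) and Top2a by 2.73 (SE 0.39, adjusted p = 5.2e-05). In bulk tissue, more cycling cells and more of these transcripts per cell cannot be told apart.

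**Figure D2:**
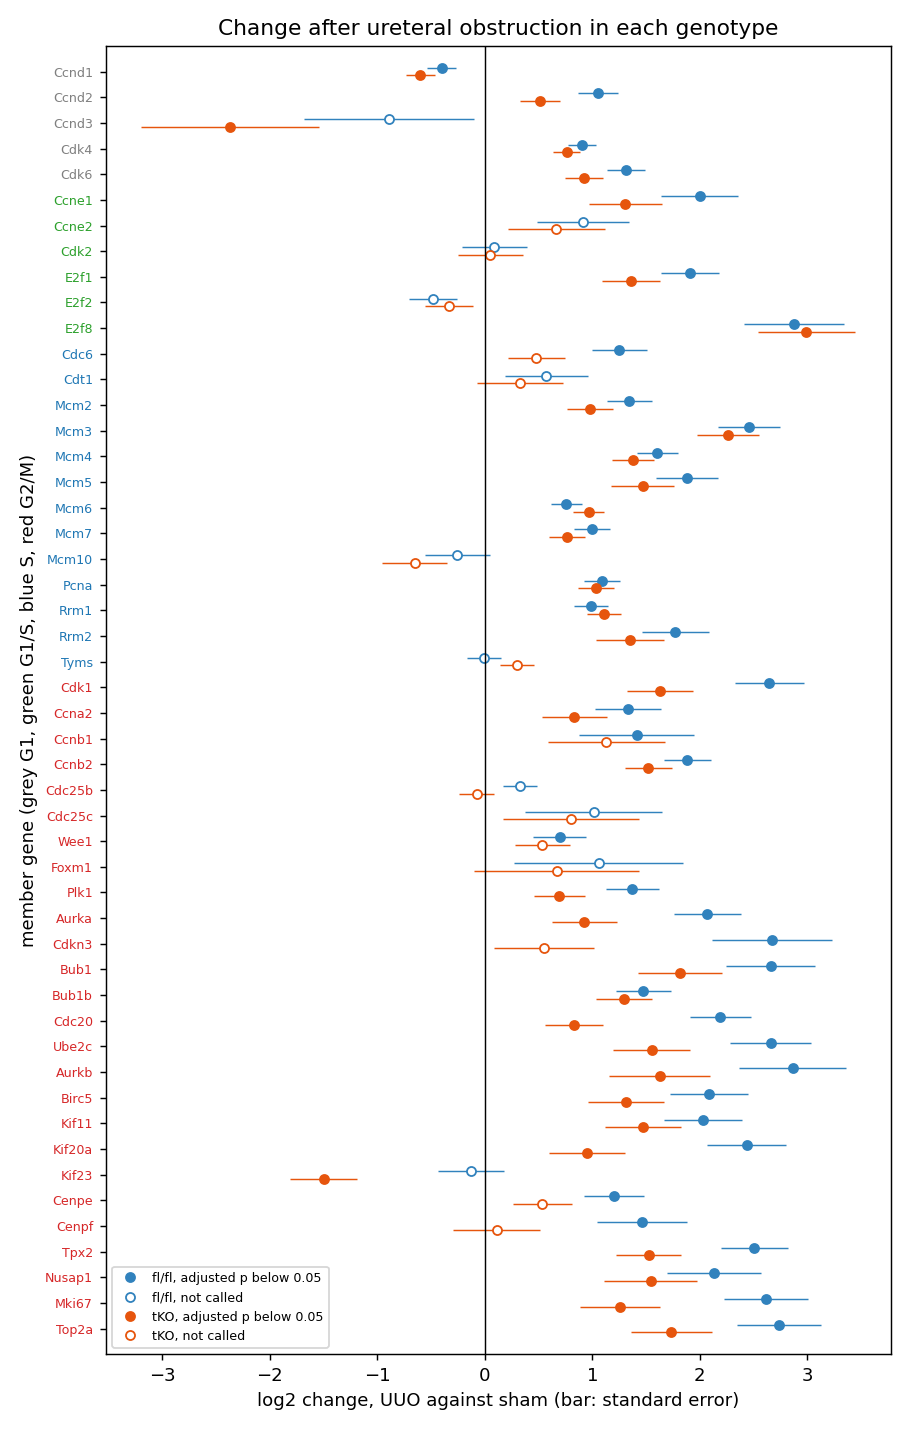
Points are log2 changes of UUO against sham for each of the 50 genes in fl/fl (blue) and tKO (orange), with standard errors, filled where the adjusted p is below 0.05. Most points lie right of 0, the fl/fl points of many G2/M genes lie right of the tKO points, and Ccnd1 lies left of 0 in both genotypes under TMM but right of 0 when libraries are scaled by column totals.

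Markers of other cell types moved with obstruction, and their part in the result was not tested. In fl/fl, 14 of 15 macrophage and monocyte markers, 9 of 14 tested T, NK and B cell markers, 6 of 6 tested neutrophil markers, 7 of 11 fibroblast markers and 10 of 10 tubular injury markers rose, and 11 of 14 proximal tubule markers fell. None of these lists held a marker at 0 in each library. Macrophage and monocyte markers summed to 213 to 243 CPM in fl/fl sham and 1232 to 1495 CPM in fl/fl UUO, and to 245 to 299 CPM in tKO sham and 1567 to 3169 CPM in tKO UUO. Tubular injury markers summed to 929 to 1334 CPM in fl/fl sham and 17369 to 29613 CPM in fl/fl UUO.

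In tKO kidneys 32 of the 50 members rose after UUO and 3 fell, against 21.7% and 19.4% of all tested genes. The median change of the members was 0.94, and that of all genes 0.02. By phase 17 of 26 G2/M, 9 of 13 S phase, 3 of 6 G1/S and 3 of 5 G1 members rose. Leaving out the library labelled tKO sham replicate 1 gave 26 members, leaving out replicate 2 gave 24 and leaving out replicate 3 gave 32. The G2/M count among these was 12, 10 and 18. With column totals 45 members rose and none fell, beside 11678 genes higher and 715 lower in place of 4169 and 3729.

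The helicase and clamp genes rose in tKO too. Mcm3 stood at 5.58, 3.94 and 5.97 CPM in tKO sham and 29.3, 23.7 and 20.9 CPM in tKO UUO, a log2 change of 2.26 (SE 0.29, edgeR adjusted p = 1.8e-05). Mcm5 rose by 1.47 (adjusted p = 8.9e-04), Pcna by 1.03 (adjusted p = 1.7e-04), Mcm4 by 1.38 (adjusted p = 4.4e-05) and the ribonucleotide reductase gene Rrm1 by 1.11 (adjusted p = 5.7e-05). At G1/S, E2f8 rose by 2.99 (adjusted p = 8.5e-05), E2f1 by 1.36 and Ccne1 by 1.31. In G1, Cdk4 rose by 0.76 and Cdk6 by 0.92.

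Among G2/M genes, Mki67 was at 14.5, 14.7 and 28.3 CPM in tKO sham and at 35.8, 42.8 and 57.6 CPM in tKO UUO. The groups were apart, with sham replicate 3 the nearest to the UUO libraries. Mki67 changed by 1.26 (SE 0.37, adjusted p = 0.0131), a call lost without sham replicate 1 (adjusted p = 0.0544), sham replicate 2 (adjusted p = 0.0578) or UUO replicate 3 (adjusted p = 0.0519). Top2a rose by 1.73 (adjusted p = 0.0017), Cdk1 by 1.63 (adjusted p = 5.6e-04), Ccnb2 by 1.52 (adjusted p = 5.0e-05), Aurka by 0.93, Bub1 by 1.82, Bub1b by 1.29, Ube2c by 1.55, Tpx2 by 1.52 and Kif11 by 1.47. Ccnb1 had a change of 1.13 and did not pass the test (adjusted p = 0.1104), with 1 read in tKO sham replicate 2.

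The 3 members that fell in tKO were Ccnd1, Ccnd3 and Kif23. Kif23 measured 31.3, 66.0 and 59.3 CPM in tKO sham and 16.9, 15.6 and 22.8 CPM in tKO UUO. The obstructed tKO libraries overlapped the fl/fl libraries, and the tKO sham libraries lay above both. Its log2 change was -1.50 (SE 0.31, adjusted p = 0.0013). The cyclin D3 gene Ccnd3 changed by -2.37 (SE 0.83, adjusted p = 0.0317), but it varied from 20.9 to 118 CPM among the fl/fl sham libraries, and the call was lost without tKO sham replicate 2 or 3 or tKO UUO replicate 2 or 3 (adjusted p from 0.0573 to 0.1128). Ccnd1 went from 207, 187 and 177 CPM to 116, 128 and 132 CPM, a change of -0.60 (SE 0.14, adjusted p = 0.0023) under TMM and of 0.42 with column totals.

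**Figure D3:**
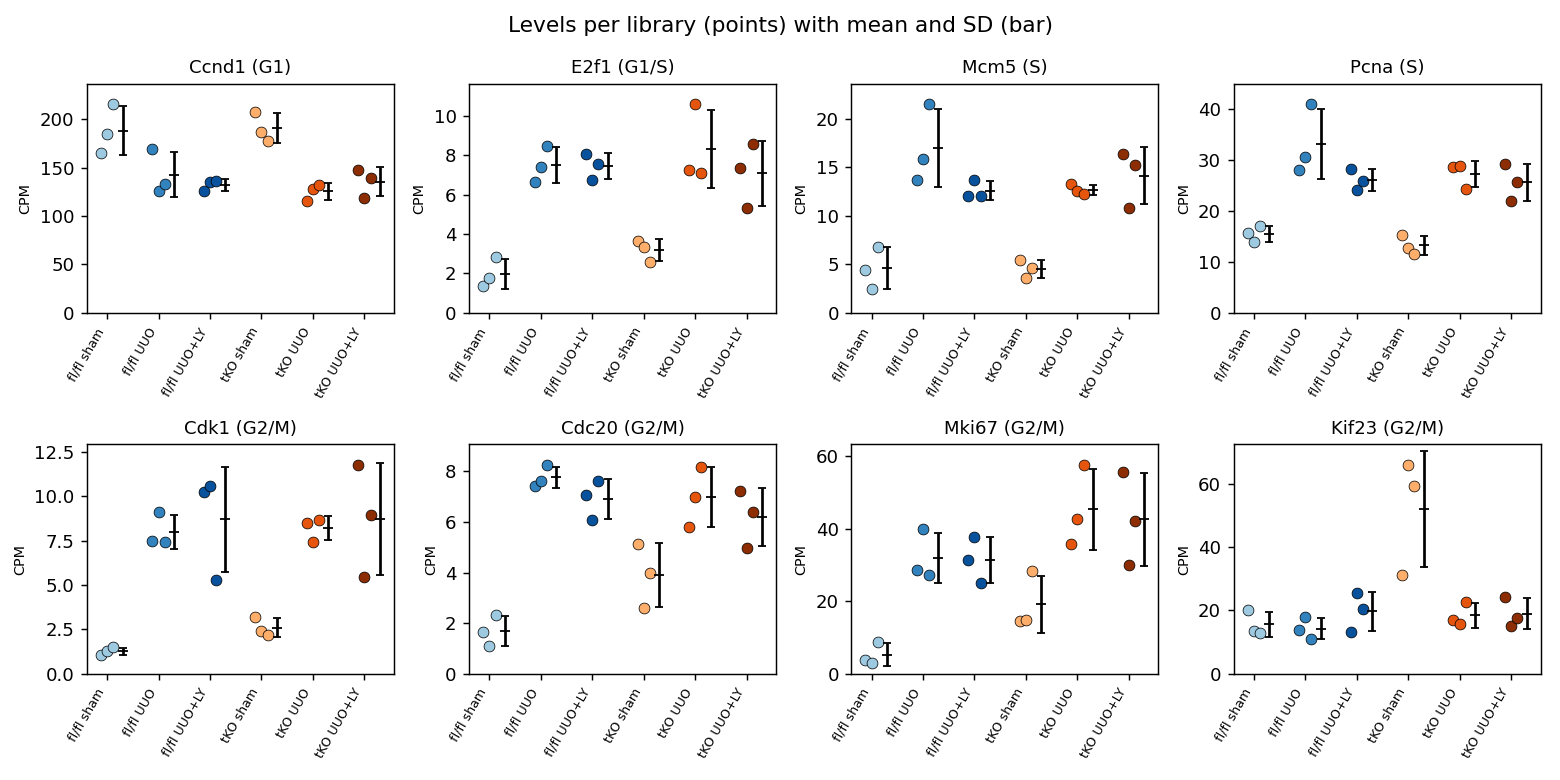
Points are the CPM of 8 members in each of the 3 libraries of a group, with the mean and SD beside them, on axes that start at 0. Pcna, Mcm5 and E2f1 are higher in the 4 obstructed groups than in either sham group, Cdk1, Cdc20 and Mki67 are higher in tKO sham than in fl/fl sham, Kif23 is highest in tKO sham, and the lower Ccnd1 levels in obstructed kidneys hold under TMM but not with column totals.

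Whether the response to UUO differed between the genotypes was tested as an interaction. No member passed in either direction, where 0.0415% of all genes did, and 10 of the 50 had an unadjusted p below 0.05, against 12.6% of all genes. DESeq2 called 2 members lower, Cdkn3 and Cdc20. The signed difference, the tKO change minus the fl/fl change, was below 0 in all 26 G2/M members, with a median of -0.81. Kif23, which fell in tKO, was among them. With column totals, however, 5 of the 26 lay above 0. In fits without single libraries, 1 lay above 0 without the library labelled tKO sham replicate 1, fl/fl sham replicate 3 or tKO UUO replicate 1. There were 2 above 0 without tKO sham replicate 3 and 3 without fl/fl UUO replicate 2. The median difference was -0.23 in S, -0.14 in G1/S and -0.39 in G1, and -0.02 over all genes. Cdc20 had a difference of -1.36 (SE 0.38, edgeR adjusted p = 0.1513), Kif23 of -1.37 (SE 0.44, adjusted p = 0.1915) and Mki67 of -1.36 (SE 0.53, adjusted p = 0.2919). For Mcm5 it was -0.41 (SE 0.40) and for Pcna -0.06 (SE 0.24).

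The genotypes were next compared within sham surgery. In tKO sham 11 members were higher than in fl/fl sham and none was lower, where 5.76% of all genes were higher and 6.57% lower. Over all genes these were 1109 and 1266, but 275 and 210 without tKO sham replicate 2 and 1877 and 2358 without the library labelled replicate 1. All 11 belonged to the 26 G2/M members, and 0 of the other 24 members were called, with 7 of them at an unadjusted p below 0.05. Over all 50 members 28 had such a p, where 30% of all genes did. In 17 members the tKO libraries lay above those of fl/fl and in 2 below, where 14% and 16.2% of all genes did. The median difference was 1.12 in G2/M, 0.06 in S, 0.47 in G1/S, 0.29 in G1 and 0.03 over all genes. With column totals, which put the median of all genes at -0.25, it was 0.80 in G2/M and -0.19 in S. These sham libraries are also the base of the UUO comparisons above, so the values are not independent of them.

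Kif23, at 20.2, 13.6 and 13.0 CPM in fl/fl sham and 31.3, 66.0 and 59.3 CPM in tKO sham, had a difference of 1.74 (SE 0.32, edgeR adjusted p = 0.0066). The library labelled tKO sham replicate 1 was the lowest of the 3 tKO values and still above fl/fl. Cdc25b, a phosphatase that activates Cdk1, measured 14.9, 13.2 and 13.0 CPM in fl/fl sham and 21.7, 23.6 and 26.3 CPM in tKO sham, again apart, with a difference of 0.80 (SE 0.16, adjusted p = 0.0104). Mki67, listed above for each group, differed by 1.86 (SE 0.39, adjusted p = 0.0112). Cdc20 measured 5.14, 2.59 and 3.98 CPM in tKO sham, above the 1.11 to 2.31 CPM of fl/fl sham (1.21, SE 0.29, adjusted p = 0.0176), a call lost without fl/fl sham replicate 2 (adjusted p = 0.0676).

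Of the other G2/M calls, Plk1, a mitotic kinase, differed by 0.96 (adjusted p = 0.0249), the kinetochore kinesin Cenpe by 1.16 (adjusted p = 0.0197), Tpx2 by 1.20 (adjusted p = 0.0273) and Ube2c by 1.66 (adjusted p = 0.0166). The phosphatase gene Cdkn3 differed by 2.73 (SE 0.59, adjusted p = 0.0121) but rested on 0, 2 and 10 reads in fl/fl sham and 28, 13 and 11 reads in tKO sham. Top2a overlapped between the groups, with 7.59, 2.80 and 9.96 CPM in tKO sham, and sat close to the threshold (1.25, SE 0.39, adjusted p = 0.0494). Cenpf, named after its values were seen, completes the 11 with 1.56 (adjusted p = 0.0291). Cdk1, at 3.20, 2.39 and 2.19 CPM in tKO sham, was above each fl/fl sham library and missed the threshold (1.05, adjusted p = 0.0502). Ccnb1 differed by 0.46 (adjusted p = 0.6436), Mcm5 by -0.01 (adjusted p = 0.9839), Pcna by -0.22 (adjusted p = 0.4079) and Ccnd1 by 0.02 (adjusted p = 0.9501).

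The count of 11 depended on the libraries and the fit. Leaving out the library labelled tKO sham replicate 1 gave 13, leaving out replicate 2 gave 10 and leaving out replicate 3 gave 6. The count was 5 without fl/fl sham replicate 1 or 2 and 14, with E2f1 of G1/S among them, without replicate 3. Cdc25b, Cdkn3, Kif23 and Mki67 were called in each of these 6 fits. When the 6 sham libraries were fitted alone the count of members was 0, in a fit that called 3 genes higher and 3 lower in all. With column totals it was 1 (Kif23). In DESeq2 it was 17, with Mcm10 of S phase among them, beside 1620 genes higher and 1736 lower in place of 1109 and 1266. Over all genes, fits without single libraries gave 275 to 1877 higher and 210 to 2358 lower. Summed over the 26 G2/M members, CPM was 74.3 to 95.1 in fl/fl sham and 151, 173 and 235 in tKO sham replicates 1, 2 and 3. A large part of the tKO sham sum, which averaged 186 CPM, came from Kif23 alone, with a mean of 52.2 CPM. Replicate 3, with the highest CPM sum, also had the highest mitochondrial share, 69.5%, and the part of that share was not tested. The order depended on the scaling. By deposited FPKM, scaled to the whole library with its mitochondrial reads, the sums were 9.31 to 13.5 in fl/fl sham. In tKO sham replicates 1, 2 and 3 they were 21.02, 16.75 and 12.71 FPKM. Replicate 3 was then the lowest of the tKO sham libraries and lay inside the fl/fl sham range. Erythroid markers, of which 0 of 8 tested were called, summed to 690 to 1517 CPM in fl/fl sham and 1242, 694 and 3499 CPM in the 3 tKO sham libraries. Of fibroblast markers, 6 of 11 were higher in tKO sham, and they summed to 268 to 420 CPM in fl/fl sham and 587 to 877 CPM in tKO sham. Macrophage and monocyte markers were higher for 2 of 15. The part of these cell types in the result was not tested.

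**Figure D4:**
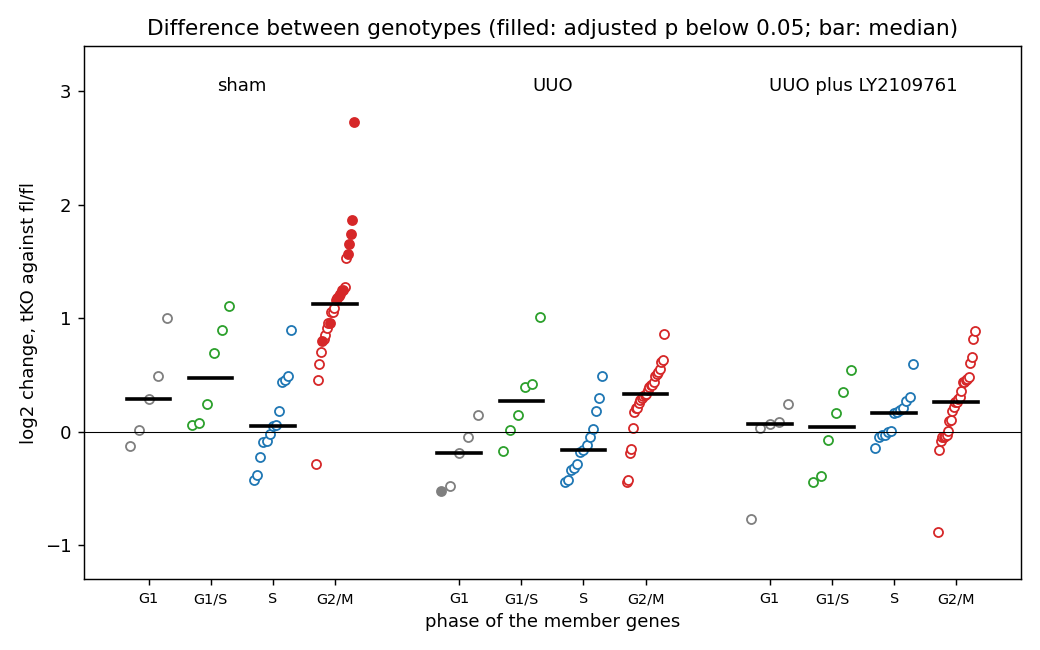
Each point is the log2 difference of a member between tKO and fl/fl in sham, UUO and UUO plus LY2109761, split by phase, with a bar at the median and filled points where the adjusted p is below 0.05. The filled points are the 11 G2/M members in sham, whose median of 1.12 stands above those of the other phases, and Cdk6 in UUO.

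After UUO no member was higher in tKO than in fl/fl and 1, Cdk6, was lower, where 8.26% of all genes were higher and 9.65% lower. Cdk6 measured 66.0, 53.2 and 53.2 CPM in tKO UUO, below the 72.5 to 89.6 CPM of fl/fl UUO. Its difference was -0.52 (SE 0.17, edgeR adjusted p = 0.0481), and the call was lost under 4 of 7 other settings and in 5 of 6 fits without 1 library. E2f8 had the largest positive difference, 1.02 (adjusted p = 0.0711), which DESeq2 called. Mki67 differed by 0.51 (adjusted p = 0.3486), Top2a by 0.25, Cdk1 by 0.04, Ccnb1 by 0.17, Mcm5 by -0.42, Pcna by -0.28 and Ccnd1 by -0.18, none past the test. With LY2109761 no member was called, where 2.98% of all genes were, 171 higher and 402 lower, or 7 and 7 without tKO UUO plus LY2109761 replicate 3. In the full fit 4 members had an unadjusted p below 0.05, where 19.6% of all genes did, and DESeq2 called 1, Wee1. Wee1 measured 11.2, 10.8 and 19.7 CPM in tKO and 22.1, 24.5 and 30.2 CPM in fl/fl, with no overlap (-0.88, SE 0.25, edgeR adjusted p = 0.0662).

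LY2109761 was set against DMSO in obstructed kidneys to ask whether blocking the TGF-β receptor kinases changed these genes. In edgeR no member was called in either genotype, where 5.15% of all genes were called in fl/fl and 0.171% in tKO. In fl/fl these were 486 genes higher and 505 lower, but 0 and 2 without the library labelled fl/fl UUO plus LY2109761 replicate 3, which also left no member called. At an unadjusted p below 0.05 there were 3 members in fl/fl and 2 in tKO, where 22.4% and 17.2% of all genes were, and DESeq2 called 1 and 0. The 3 in fl/fl were Mcm6, Wee1 and Kif20a. Mcm6, a helicase subunit, measured 38.2, 44.3 and 45.8 CPM with DMSO and 28.9, 31.5 and 31.1 CPM with LY2109761. The groups were apart, with a log2 difference of -0.49 (SE 0.14, edgeR adjusted p = 0.0574), and DESeq2 called it. Without that replicate 3 the edgeR difference of Mcm6 was -0.51 (adjusted p = 0.1725). Wee1 differed by 0.67 (SE 0.25, adjusted p = 0.1150) and Kif20a by -0.87 (SE 0.33, adjusted p = 0.1312). Of the 13 S phase members 12 had a value below 0 in fl/fl, with a median of -0.26, and in tKO 6 of 13 did, with a median of 0.02 that was -0.04 with column totals. The median over all genes was 0.02 in fl/fl and -0.01 in tKO. Of 31 other S phase genes, none of them called, 18 had a value below 0 in fl/fl and 20 in tKO. Their median was -0.12 in both genotypes.

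The proliferation genes showed no call with the inhibitor. In fl/fl, Mki67 measured 31.4, 37.7 and 25.0 CPM with LY2109761, overlapping the DMSO libraries (-0.02, SE 0.36, adjusted p = 0.9801). Top2a differed by -0.08 (SE 0.35), Cdk1 by 0.12 (SE 0.28), Ccnb1 by 0.32 (SE 0.49), Pcna by -0.35 (SE 0.16), Mcm5 by -0.43 (SE 0.27) and Ccnd1 by -0.11 (SE 0.14). In tKO, Mki67 ranged from 30.0 to 55.8 CPM with LY2109761 and differed by -0.09 (SE 0.36, adjusted p = 0.9266). Top2a differed there by -0.02, Cdk1 by 0.09, Ccnb1 by 0.12, Pcna by -0.09, Mcm5 by 0.16 and Ccnd1 by 0.11. In tKO the pair at an unadjusted p below 0.05 was Ccnd2 (0.46, adjusted p = 0.2104) and Mcm3 (-0.64, adjusted p = 0.2252). The interaction of genotype and LY2109761 gave no edgeR call among the members, where 13.8% of all genes were called, and 1 DESeq2 call, Kif20a. At an unadjusted p below 0.05 it gave 3 members, Cdc6, Kif20a and Cdk6, where 29.7% of all genes were.

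Set against sham, obstructed kidneys with LY2109761 had 37 members higher and 1 lower in fl/fl, where 22.4% and 19.6% of all genes were (36 and 1 without the library labelled fl/fl UUO plus LY2109761 replicate 3), and 33 higher and 3 lower in tKO, where 20.8% and 19% were. With column totals 43 members were higher and none lower in either genotype, beside 8015 genes higher and 991 lower in fl/fl and 10927 and 632 in tKO, in place of 4308 and 3775 and of 4003 and 3660. These comparisons share their sham libraries with those of UUO with DMSO. In fl/fl, Mki67 rose by 2.59, Top2a by 2.66, Cdk1 by 2.77, Cdkn3 by 3.25, Ube2c by 3.09, Mcm3 by 2.26 and Pcna by 0.75, each past the edgeR threshold. In tKO, Mki67 rose by 1.17, a call lost without tKO sham replicate 1 (edgeR adjusted p = 0.0762), tKO sham replicate 2 (adjusted p = 0.0819) or tKO UUO plus LY2109761 replicate 1 (adjusted p = 0.0841). In the same comparison Top2a rose by 1.71, Cdk1 by 1.72, Mcm5 by 1.63 and Pcna by 0.94. Ccnd1 had changes of -0.51 in fl/fl and -0.49 in tKO under TMM, both past the threshold, and of 0.15 and 0.48 with column totals. The call in tKO was lost with no filter (adjusted p = 0.0659), with only the groups compared (adjusted p = 0.0539) and without tKO UUO plus LY2109761 replicate 2 (adjusted p = 0.0542). The other members that fell in tKO were Kif23 (-1.45, adjusted p = 0.0017) and E2f2 (-0.63, adjusted p = 0.0383), the latter at 0.35 with column totals. In tKO, leaving out the library labelled sham replicate 1 gave 30 members higher and 3 lower. The count of G2/M members higher in tKO was 17, and it was 14 without that library and 11 without tKO sham replicate 2.

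Other genes of the cell cycle, which are not members, were counted by phase in the same fit. After UUO in fl/fl 48 of 55 tested other G2/M genes rose and 3 fell, and 19 of 31 other S phase genes rose, where 20.9% of all genes rose and 18.7% fell. In tKO 33 of 55 rose and 1 fell, and 15 of 31 rose, where 21.7% and 19.4% of all genes did. The β-tubulin gene Tubb5 rose by 1.84 in fl/fl and 2.14 in tKO, the Cdk-binding protein gene Cks1b by 1.76 and 1.56, and the maintenance methylation factor Uhrf1 by 3.42 and 2.26, all past the edgeR threshold. In tKO sham against fl/fl sham 23 of 55 other G2/M genes were higher and none lower, while 0 of 31 other S phase genes were higher, where 5.76% of all genes were. The count of 23 was also 23 with tKO sham replicate 1 left out, and it was 10 to 23 without single sham libraries (10 without fl/fl sham replicate 2, 14 without fl/fl sham replicate 1 or tKO sham replicate 3 and 15 without tKO sham replicate 2), 3 with column totals, 29 in DESeq2 and 0 when the sham libraries were fitted alone. Over all genes DESeq2 called 1620 higher in that comparison, in place of 1109. These recounts were chosen after seeing the data. The separase gene Espl1 differed by 1.84 (adjusted p = 0.0021), the kinetochore gene Ndc80 by 2.79 (adjusted p = 0.0044) and the kinesin Kif22 by 1.59 (adjusted p = 0.0078). After UUO 6 of 55 were higher in tKO, where 8.26% of all genes were, and the one with the smallest p was the centromeric histone gene Cenpa at 1.11 (adjusted p = 0.0080). The count of 6 was 2 to 4 without single libraries (2 without fl/fl UUO replicate 1 or tKO UUO replicate 3, 3 without tKO UUO replicate 2), 1 with column totals and 10 in DESeq2. Over all genes 1591 were higher in tKO after UUO, but 363 with column totals and 2121 in DESeq2. Among 20 tested CDK inhibitors, pocket proteins and their partners, 5 rose and 2 fell after UUO in fl/fl and 3 rose and 2 fell in tKO, beside the same shares of all genes. The retinoblastoma-like gene Rbl2 fell by 0.43 in fl/fl and by 0.62 in tKO, and the CDK inhibitor gene Cdkn1a rose by 1.69 in tKO (adjusted p = 0.0130). In sham, 1 of the 20 differed between genotypes, the retinoblastoma gene Rb1, higher in tKO by 0.81 (adjusted p = 0.0066).

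The members were also looked up in the authors' deposited tables of Pcmt1 KO kidney and of HK-2. These hold no gene with a fold between the group means below 1.501 in kidney and 2.0 in HK-2, so presence and direction are a description and no test was made. The higher group mean was at least 1.002 FPKM for each gene in kidney and 1.005 in HK-2. The kidney table of 410 genes held 18 members, 1 of G1/S, 6 of S phase and 11 of G2/M. Of these 18, 8 had a wild-type mean below 1 FPKM, such as Mki67, Top2a and Cdk1, and could be listed only through the KO group, where they are high. In all 18 the mean FPKM was higher in Pcmt1 KO than in wild-type kidney, as it was in 62.2% of the listed genes, and in 8 of them each KO library lay above each wild-type library, as in 32.7% of the listed genes. Rrm2, a subunit of ribonucleotide reductase, had 7.72, 10.3, 6.39 and 3.65 FPKM in the 4 KO libraries and 2.45, 3.17, 3.11 and 3.25 FPKM in the wild type. Cdc20 had 4.255, 7.11, 3.91 and 3.56 FPKM in KO and 1.87, 1.74, 2.12 and 2.48 FPKM in the wild type. Both were apart, with KO replicate 4 the lowest and replicate 2 the highest of the KO libraries.

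Mcm5 was likewise apart, at 4.17, 4.55, 2.61 and 2.33 FPKM in KO and 1.57, 1.16, 1.95 and 1.73 FPKM in the wild type. Mki67 had 2.09, 2.98, 1.64 and 0.738 FPKM in KO and 0.763, 0.945, 0.943 and 0.852 FPKM in the wild type. Top2a had 1.90, 2.17, 1.38 and 0.507 FPKM in KO against 0.549 to 0.786 FPKM. In Mki67 and Top2a KO replicate 4 lay below each wild-type library while the other 3 KO libraries lay above. Pcna had a mean of 14.6 ± 3.37 FPKM in KO and 9.71 ± 1.16 in the wild type (SD, n = 4), and Cdk1 1.34 ± 0.644 and 0.651 ± 0.181, both overlapping. The HK-2 table of 379 genes, of which 56.7% were higher in knockout cells, held 1 member, CCND1, with 32.3, 34.5 and 35.5 FPKM in PCMT1 KO cells and 14.1, 13.6 and 14.6 FPKM in wild-type cells, apart, and with 54.4% of the listed genes in that pattern.

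**Figure D5:**
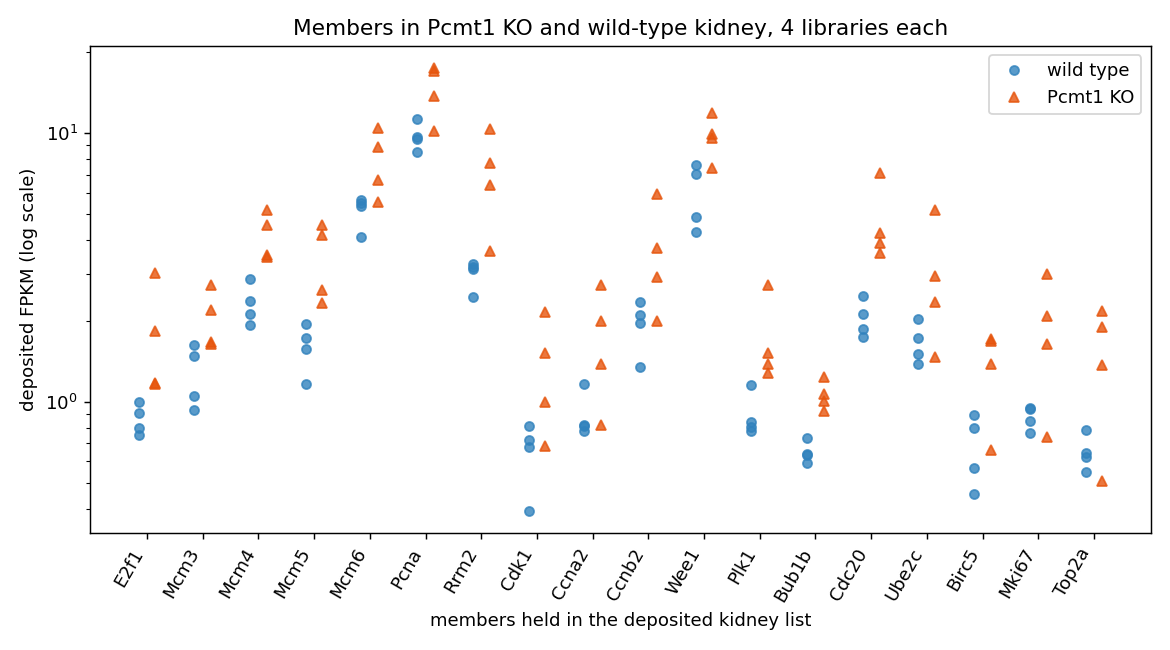
Points are the deposited FPKM, on a log axis, of the 18 members held in the kidney table, for 4 wild-type (circles) and 4 Pcmt1 KO (triangles) libraries. The KO mean is higher in all 18, and in 8 of them each KO library lies above each wild-type library, as in 62.2% and 32.7% of the listed genes. The list was chosen on these same libraries. Those of the 18 with a wild-type mean below 1 FPKM, 8 in number, could be listed only through the KO group.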

How the data were processed

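Per the submitters' processing notes, the reads were handled with fastp, HISAT2 and StringTie, with builds GRCm38/mm10 and GRCh38/hg38 named and no versions. The sources used here give no counting step or strand setting. The authors deposited a whole-number count and an FPKM (fragments scaled to gene length and library size) for each gene and library. Gene positions in the obstruction table equal those of GENCODE vM21 (GRCm38) for 1 of 50 members, against 18 of 18 in the kidney table, so its positions are not printed.

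Counts of the 18 obstruction libraries were fitted together with edgeR 4.0.16 (R 4.3.3; filterByExpr, TMM, quasi-likelihood test on 6 groups, 12 residual degrees of freedom), and p-values were adjusted by Benjamini-Hochberg over the 19256 genes tested, with a threshold of 0.05. "Rose", "fell" and "called" mean an adjusted p below it. The biological coefficient of variation was 0.283. Genes without a symbol (525) stayed in the fit. Alternatives were RLE and column-total scaling, TMM without mitochondrial genes, no filter, only the groups compared, a replicate block, DESeq2 1.42.0, and leaving out each library. No column of the tables was left without a sample.

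Named were Mki67, Top2a, Cdk1, Ccnb1, Pcna, Mcm5, Ccnd1 and Pcmt1, and in each role list up to 3 members with the smallest p and those called against its main direction. Of the other lists up to 3 genes were named, and other S phase genes that were lower are not reported here. Members and lists were chosen with earlier results of these data known.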

Additional observations from a re-analysis of the deposited data

Results flagged for a closer look

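In 36 groups of 4 kidney libraries (18 members, 2 genotypes), 3 had a highest library whose gap to the next, as a share of the group's range, exceeded Dixon's critical value for 4 values. Chance alone marks about 5% of groups, but these members come from a list chosen on the same libraries, so that rate may not hold here. Plk1 and Ccna2 had wild-type means of 0.896 FPKM each and could be listed only through the KO group. Plk1 in Pcmt1 KO kidney had a share of 0.831, with replicate 2 at 2.72 FPKM and the next library at 1.52. Plk1 in wild-type kidney had 0.851, with replicate 1 at 1.16 FPKM and the next at 0.838. Ccna2, the cyclin A2 gene, had 0.906 in wild-type kidney, with replicate 4 at 1.17 FPKM and the next at 0.817.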

How the results depend on the processing

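Of the 310 recomputed counts of members, 277 stayed within 1.5 times the reported one. Among these are counts of 0 that stayed 0, as most did for LY2109761 against DMSO and for the interactions. The share therefore says little about how stable the other counts were. Column totals, under which the median change of all genes after UUO is 0.76 (fl/fl) and 1.06 (tKO) in place of 0.02, turned 8 values to positive: Ccnd1 to 0.33 (fl/fl UUO), 0.42 (tKO UUO), 0.15 (fl/fl UUO plus LY2109761) and 0.48 (tKO UUO plus LY2109761), Tyms to 0.73 (fl/fl UUO), Cdc25b to 1.01 and 0.75 (tKO, without and with LY2109761) and E2f2 to 0.35 (tKO UUO plus LY2109761). Sign changes of values called in neither fit were not counted. Column totals brought the members lower to 0 in all 4 comparisons with sham. In fl/fl UUO that count was also 0 with no filter and with only the groups compared, and 0 to 1 without single libraries. In tKO UUO plus LY2109761 it was 1 with no filter. Members higher in tKO sham were 1 with column totals, 0 with only the groups compared, 17 in DESeq2 and 5 to 14 without single libraries. DESeq2 also called 1620 of all genes higher in that comparison, in place of 1109. In tKO against fl/fl UUO, members lower were 0 with RLE, column totals, no filter and the replicate block and 0 to 1 without single libraries, and members higher 1 with only the groups compared and in DESeq2. DESeq2 called 1 member lower for genotype with LY2109761, 1 lower for LY2109761 in fl/fl (also 1 with TMM without mitochondrial genes), 2 lower in the interaction of genotype and UUO and 1 higher in that of genotype and LY2109761. The causes were not tested. Over all genes, tKO sham against fl/fl sham gave 1109 higher and 1266 lower, but 3 and 3 with only the groups compared, 275 and 210 without tKO sham replicate 2 and 1877 and 2358 without tKO sham replicate 1, and LY2109761 in fl/fl UUO gave 486 and 505, but 0 and 2 without fl/fl UUO plus LY2109761 replicate 3, 11 and 14 with column totals and 946 and 1109 in DESeq2. LY2109761 in tKO UUO gave 16 and 17, but 1 and 1 without tKO UUO plus LY2109761 replicate 3, 142 and 140 without its replicate 1 and 438 and 507 in DESeq2, the interaction of genotype and UUO 2 and 6, but 216 and 77 without tKO sham replicate 1 and 234 and 197 in DESeq2, and that of genotype and LY2109761 1357 and 1307, but 714 and 626 without fl/fl UUO plus LY2109761 replicate 3 and 164 and 125 with column totals. Without LY2109761, tKO against fl/fl UUO gave 1591 and 1858, but 490 and 874 without fl/fl UUO replicate 1 and 363 and 317 with column totals. With LY2109761 in both, tKO against fl/fl UUO gave 171 and 402, but 7 and 7 without tKO UUO plus LY2109761 replicate 3, 9 and 14 without fl/fl UUO plus LY2109761 replicate 3 and 551 and 935 in DESeq2. Other single libraries also moved these counts over all genes by more than 1.5 times.

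Same-numbered libraries of different groups had a median correlation of 0.00 (-0.13 to 0.15, 2 of 40 pairs above 0.1). Pairs with other numbers also had a median of 0.00 (-0.16 to 0.17, 7 of 95 above 0.1). This check cannot tell whether same-numbered libraries were handled together. With the replicate block the members higher in tKO sham were 13 and those lower in tKO UUO 0. Members near 1 CPM in sham rest on few reads, for Ccnb1 12 to 15 a library in fl/fl sham and 1 in tKO sham replicate 2.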
